A study of Bos taurus with 4 samples.

Results

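Chromatin-modifying and remodelling enzymes were taken as the array probes whose platform gene symbol began with KDM, KMT, SETD, HDAC, KAT, PRMT, SMARC, EHMT, EZH, CBX, CHD, BRD, BRPF, ING or SIRT (most of these followed by a number), or was SUZ12, EED or DOT1L. The rule found 145 of 43794 bovine probes, for 93 of 15216 genes with a symbol, and used no measured value. No DOT1L probe was found, and 2 older symbols were brought up to date, SETD8 to KMT5A and PRMT10 to PRMT9. RNA came from 4 pools of 200 immature Holstein oocytes, denuded of cumulus cells and at the germinal vesicle stage, the stage before meiosis resumes, from slaughterhouse cow ovaries carried on ice. Each pool was split on poly(A)-binding beads into A150, eluted at 75 °C after a first elution at 42 °C and labelled as carrying poly(A) tails of 150 nucleotides or more, and A-, not retained by the beads and labelled as carrying tails of 50 nucleotides or fewer. The A150 and A- RNA of a pool shared 1 array: A150 carried Cy5 on arrays 1 and 2, and Cy3 on the other pair. Every value called a ratio is the log2 signal of A150 over A- after normalization within the array, so a positive ratio is a relatively higher signal in A150, and 0 is the typical probe of that array. How many cows lie behind each pool is not stated, and all values are of unfertilised oocytes that were not matured.

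Chromatin enzymes write, erase and read chemical marks on histone tails or use ATP to move nucleosomes. Acetyltransferases and methyltransferases add marks, deacetylases and demethylases take them off, bromodomain and PHD-finger proteins bind them, and SWI/SNF, ISWI and CHD proteins remodel nucleosomes. The fully grown oocyte has largely silenced transcription and stores messages for meiosis and the early embryo, in which maternal chromatin enzymes act on the genome before the embryo transcribes its own genes. In oocytes a short poly(A) tail is a common state of stored messages and a long tail a common state of translated ones, so the fractions separate messages of the same enzyme system by tail state.

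The share of probes above background depended on the array and channel. Above background means a spot mean over the negative controls' mean by more than 2 SD. In A150, 45.5%, 7.59%, 45.5% and 67.6% of the 145 probes lay above background on arrays 1 to 4, against 43.9%, 11.2%, 43.9% and 63.8% of all probes with a symbol. In A- the shares were 50.3%, 31.7%, 21.4% and 36.6%, against 49.7%, 30.4%, 22.9% and 37.5%. Array 2 therefore had few A150 spots above background for these genes as for all others. Oocyte identity was checked on 14 marker genes, of which 10, among them GDF9, BMP15, ZP3 and FIGLA, were above background on all 4 arrays and 0 were above it on none. Of 14 cumulus and granulosa markers, GJA1, PTX3 and STAR were above background on all 4 arrays and FSHR, FST, AMH, FOXL2 and HSD3B1 on none. Of 7 blood and vessel markers, HBB and VWF were above background on all 4 arrays and CD68 and PECAM1 on none. The part of such cells in the ratios below was not tested, and in pooled RNA fewer cells of a type cannot be told apart from less RNA per cell.

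A gene was tested when some probe of it cleared background in either fraction on 3 or more arrays, and the brightest such probe stood for it. This left 51 of the 93 genes (54.8%, against 51.2% of all genes with a symbol) and 70 of the 145 probes. Since a probe could pass through 1 fraction alone, the 51 are not a neutral sample of the 93. The share that could be tested differed by class. It was 10 of 11 genes for Polycomb and HP1 proteins, 11 of 15 for deacetylases, 8 of 11 for readers, 7 of 13 for lysine methyltransferases, 5 of 11 for lysine demethylases, 3 of 8 for arginine methyltransferases, 1 of 2 for KAT acetyltransferases and 6 of 22 for remodellers. Among the 42 genes left out, 14 had no probe above background in any channel of any array, namely BRD3, CHD1L, CHD2, CHD4, CHD5, CHD7, HDAC5, KAT2B, KDM5C, PRMT2, PRMT8, SETD1A, SETD7 and SMARCD3. The others left out were KDM2A, KDM3A, KDM5A, KDM5B and KDM6A among demethylases, EHMT1, SETD1B, SETD3 and SETDB2 among lysine methyltransferases, CBX6, PRMT3, PRMT7 and PRMT9, the deacetylases HDAC1, HDAC3 and SIRT4, the readers BRD8 and BRPF1, and the remodellers CHD1, CHD8, CHD9, SMARCA1, SMARCAD1, SMARCAL1, SMARCB1, SMARCC1, SMARCC2 and SMARCD1. A probe below background gives no reliable ratio, and says nothing firm about whether the message was present.

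The chromatin enzymes as a whole were not displaced toward either tail fraction. Of the 51 genes, 23 had a positive and 28 a negative mean ratio, against 50.6% positive among the 7795 genes tested. Their median was -0.18, -0.19, 0.18 and 0.05 on arrays 1 to 4, a mean of -0.04 ± 0.18 (SD, n = 4 arrays), beside medians of -0.02, -0.06, 0.17 and 0.12 over all genes tested. No gene passed limma's adjusted threshold of 0.05 toward A150 or toward A- (0% of all genes tested in either direction), and neither did any of the 70 probes (0.0617% of all probes toward A-). Before adjustment, 4 genes had p under 0.05 toward A150, namely KAT5, SETDB1, BRD9 and ING5, where the background over all genes was 9.72%, and 4 toward A-, namely BRPF3, SUZ12, ING3 and CBX5, where it was 4.19%. Together these are 15.7% of the 51 genes against 13.9% of all genes tested, so the count is close to the background. It was 5 without array 1. On all 4 arrays 5 genes were positive (background 13.7%) and 5 negative (8.89%), in all 19.6% against 22.6% of all genes tested. A fold over 2 was found for 4 genes toward A150 and 6 toward A- (background 13.5% and 9.12%).

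**Figure D1:**
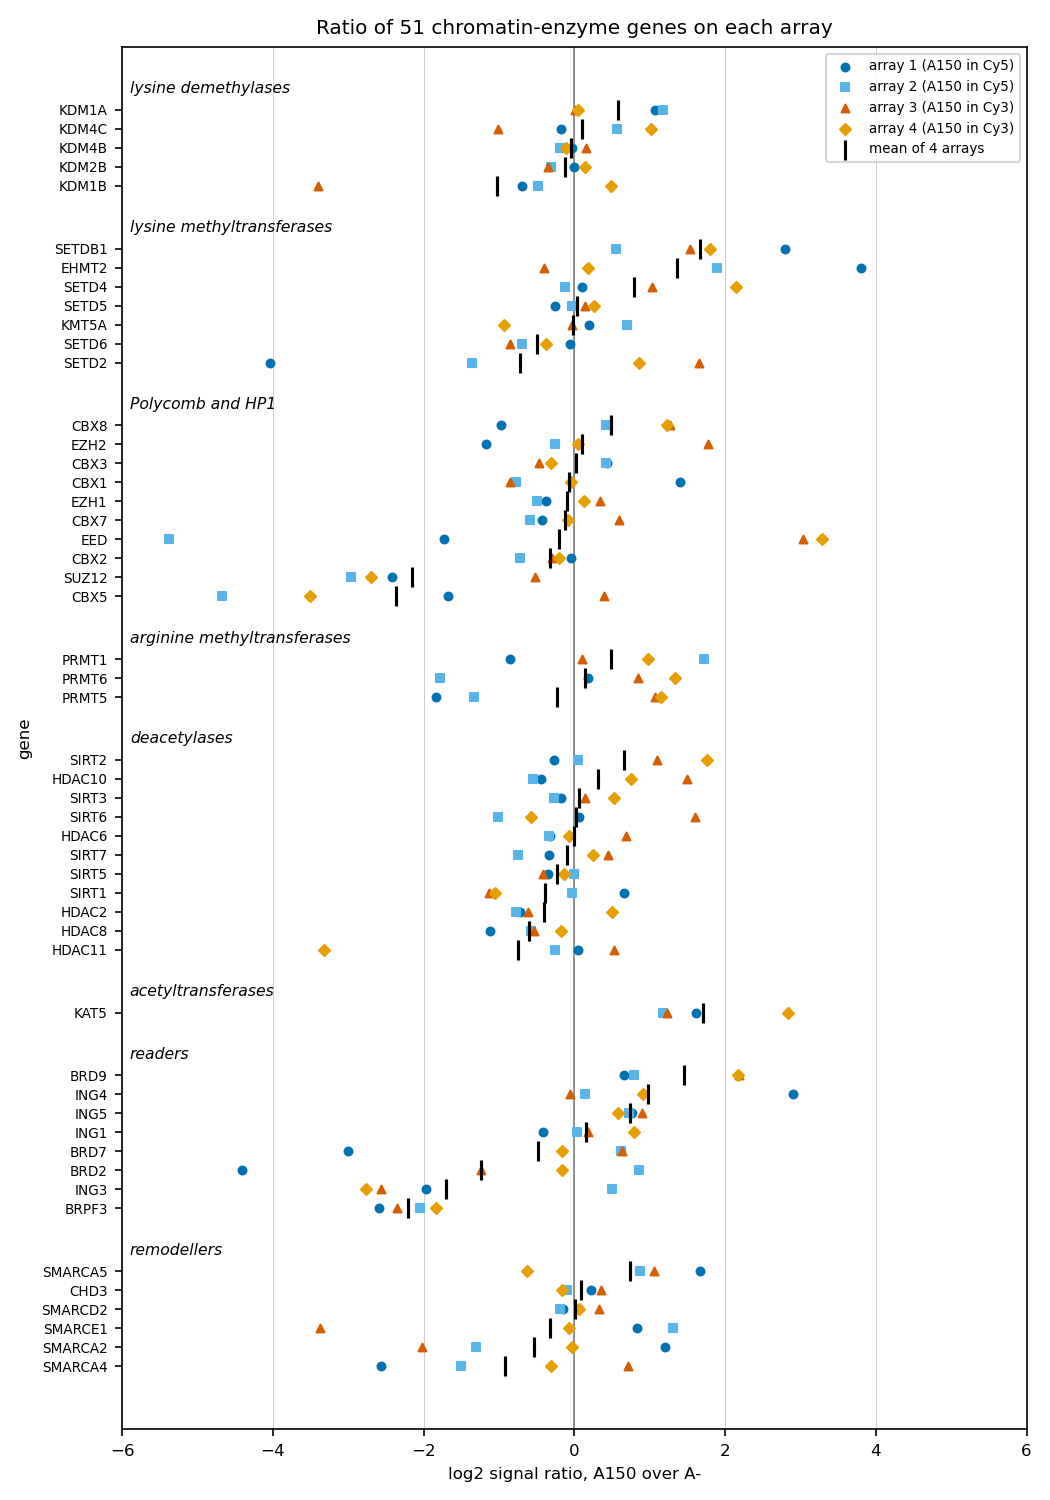
The horizontal axis is the log2 signal ratio of A150 over A- and each row is 1 of the 51 tested genes, grouped by class and sorted by mean. Symbols are the 4 arrays and black bars their mean. BRPF3 and SUZ12 lie left of 0 and KAT5 and SETDB1 right of 0 on every array, while EED runs from -5.38 to 3.28.

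Writers and readers of histone acetylation held genes on each side of 0 with 1 sign on all 4 arrays. KAT5, also called TIP60, is the catalytic subunit of an acetyltransferase complex that acts in transcription and DNA repair. Its ratios were 1.62, 1.17, 1.23 and 2.83 on arrays 1 to 4. All lay on the A150 side, and the probe was above background in both fractions on every array. The mean of 1.71 ± 0.77 (SD, n = 4) is a 3.27-fold higher signal in A150 (limma adjusted p = 0.152, and 0.0653 to 0.378 over the alternatives). As scanned, its A150 spots read 7260 to 17192 and its A- spots 2292 to 4249. A second KAT5 probe had a mean of 1.32 ± 1.24. Its A- spots were on no array well above background, and by its bound the signal was at least 2.49-fold higher in A150. The remaining KAT5 probe averaged 1.19 ± 1.44 with 1 negative array and 1 array above background in A-. Both further probes passed the filter through A150, so their sign is no independent support.

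BRPF3, a PHD-finger and bromodomain scaffold of MYST-family acetyltransferase complexes, lay on the opposite side. Its ratios were -2.59, -2.04, -2.35 and -1.84. The mean of -2.21 ± 0.33 (SD, n = 4) is a 4.61-fold higher signal in A-, with the smallest p among the 51 genes (limma adjusted p = 0.0889, and 0.0627 to 0.326 over the alternatives). The probe was above background in A- on 4 arrays and in A150 on 3. A second BRPF3 probe gave -2.04, -1.97, -1.64 and -2.05, a mean of -1.92 ± 0.19, and was above background in A150 on 2 arrays. The other probe did not pass the filter and gave 1.19, 2.78, -0.98 and -0.12, with 2 arrays above background in each fraction. Both usable BRPF3 probes lay on the A- side, but the second passed the filter through A-, so its sign is no independent support. The probe left out did not show the A- side.

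ING proteins are PHD-finger readers of methylated lysine 4 of histone H3 that sit in acetyltransferase or deacetylase complexes. Of 4 tested ING genes, 3 had positive means. ING3, a subunit of the KAT5 complex, had ratios of -1.97, 0.50, -2.57 and -2.77, a mean of -1.70 ± 1.51 or 3.25-fold toward A- (limma adjusted p = 0.324, and 0.191 to 0.730 over the alternatives). Array 2 alone was positive, with both spots below background on that array, and without it the mean was -2.43. Its second probe was negative on all 4 arrays, between -2.95 and -0.80, but passed the filter through A-.

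ING5, a subunit of BRPF-containing acetyltransferase complexes, had ratios of 0.77, 0.72, 0.89 and 0.58, a mean of 0.74 ± 0.13 (limma adjusted p = 0.261, and 0.241 to 0.795 over the alternatives). Its A- spots were on no array well above background, so these ratios and their p rest on an A- level that was not measured. The probe passed the filter through A150, narrowly. On arrays 1, 3 and 4 its A150 spots read 382, 1191 and 507 against background levels of 330, 1079 and 484. Its bound was 1.55-fold toward A150. ING4 stood at 0.97 ± 1.35 by its brightest probe and at -0.06 ± 0.48 by another, so its direction is not settled. ING1, a subunit of a SIN3 deacetylase complex, stood at 0.15 ± 0.50.

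BRD proteins bind acetylated lysines. BRD9, a subunit of a SWI/SNF remodeller, had ratios of 0.66, 0.79, 2.18 and 2.17, a mean of 1.45 ± 0.84 or 2.73-fold toward A150 (limma adjusted p = 0.202, and 0.154 to 0.450 over the alternatives). Arrays 1 and 2 gave about the same value, as did arrays 3 and 4, and the values with A150 in Cy3 were the higher. However, BRD9 passed the filter through A150 alone, since its A- signal cleared background on 2 arrays only. Both of its spots were too dim on array 2, and its A- spot was too dim on array 3. The ratios of those arrays, and the likeness within each pair, thus rest on levels that were not measured. BRD2, a BET-family reader, stood at -4.41, 0.85, -1.24 and -0.16 although its probe was above background in both fractions on every array. One array, the first, therefore carries most of its mean of -1.24 ± 2.28. BRD7 was at -3.00 on array 1 and between -0.17 and 0.63 on the others by its brightest probe, whereas its second probe was positive on array 1 and lowest, at -3.04, on array 4.

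**Figure D2:**
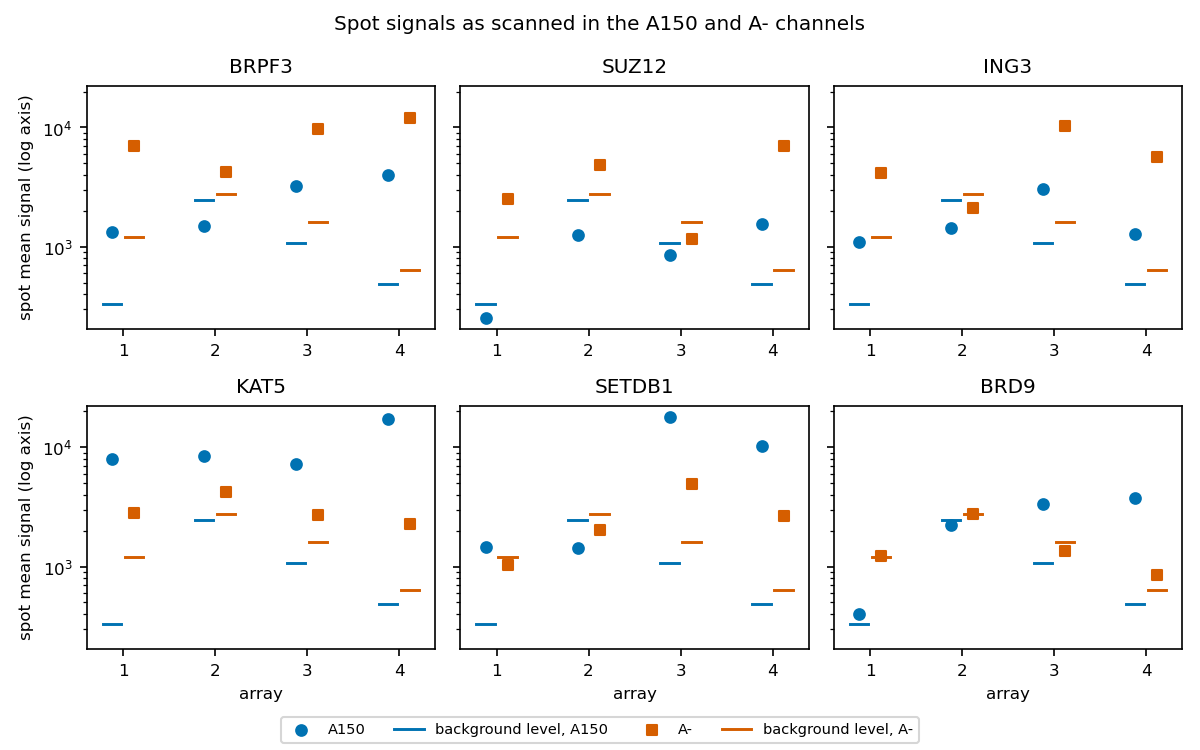
Each panel gives the mean spot signal of 1 gene as scanned, on a log axis, for the A150 (circles) and A- (squares) channels of the 4 arrays. Short lines mark the background level of that channel. KAT5 reads above both lines on every array, while SUZ12 reaches the A150 line on 1 array only.

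Deacetylases, the erasers of acetylation, stayed near 0. Histone deacetylases of the HDAC family use zinc, and sirtuins use NAD+. Of 11 tested genes 4 had positive means, the means ran from -0.75 to 0.66, and none passed an unadjusted p under 0.05. HDAC8 was negative on all 4 arrays, at -1.12, -0.57, -0.54 and -0.19, a mean of -0.60 ± 0.39 (limma adjusted p = 0.422) with both fractions above background on every array. HDAC2, the class I deacetylase of the SIN3 and NuRD complexes, stood at -0.72, -0.78, -0.61 and 0.49, with its A150 spot above background on 1 array. HDAC11 had the lowest mean of the class, -0.75 ± 1.74, which array 4 alone (-3.32) brought about.

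Among sirtuins, SIRT2, a mostly cytoplasmic deacetylase, stood at 0.66 ± 0.94, with -0.27 and 0.04 on arrays 1 and 2 and 1.09 and 1.76 on arrays 3 and 4. SIRT1, which deacetylates histones and p53, stood at -0.39 ± 0.86. The mitochondrial sirtuins SIRT3 and SIRT5 were close to 0, at 0.05 ± 0.36 and -0.23 ± 0.19. SIRT6, a deacetylase tied to DNA repair, averaged 0.01 and 0.08 by 2 of its 3 probes. The other had no A- spot above background, and its bound was 2.30-fold toward A150. It passed the filter through A150, on 3 arrays, so its sign is no independent support. The median of the 5 HDAC genes was below that of the 6 SIRT genes on 3 of 4 arrays, by -0.13 ± 0.26 on average, a difference smaller than its spread.

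Lysine methyltransferases added another gene on the A150 side. SETDB1 trimethylates lysine 9 of histone H3 and silences retroelements. Its ratios were 2.79, 0.55, 1.54 and 1.80. The mean of 1.67 ± 0.92 is 3.19-fold toward A150 (limma adjusted p = 0.181, and 0.130 to 0.816 over the alternatives). SETDB1 passed the filter through A150 alone, since its A- signal cleared background on 2 arrays only. Neither fraction was above background on array 2, where the ratio was smallest. On array 1, where the ratio was largest, the A- spot read 1023 against a background level of 1195. The size of the ratio is therefore uncertain. EHMT2, also called G9a, which dimethylates the same residue, stood at 3.80, 1.89, -0.41 and 0.17. Its mean of 1.36 ± 1.90 thus comes from the arrays with A150 in Cy5 (mean 2.84) and not from those with A150 in Cy3 (mean -0.12). SETD2, the enzyme for trimethylated lysine 36, reversed in the same way with the opposite sign, at -4.04, -1.36, 1.65 and 0.85.

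The rest of that class were smaller. SETD6, which methylates non-histone targets too, was negative on all 4 arrays (-0.07, -0.70, -0.86 and -0.38) by 1 probe, but a second probe averaged 0.09 ± 0.32. SETD4 stood at 0.78 ± 1.03, SETD5 at 0.03 ± 0.22, and KMT5A, which monomethylates lysine 20 of histone H4, at -0.02 ± 0.68. In all, 4 of 7 lysine methyltransferase genes had positive means.

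Polycomb repressive complex 2 (PRC2) trimethylates lysine 27 of histone H3, with EZH2 or EZH1 as the enzyme and EED and SUZ12 as required subunits. SUZ12 had a negative ratio on every array, at -2.42, -2.96, -0.52 and -2.70. The mean of -2.15 ± 1.11 is 4.45-fold toward A- (limma adjusted p = 0.155, and 0.0605 to 0.407 over the alternatives). The probe passed the filter through A-, with spots above background in A- on 3 arrays and in A150 on 1. On array 3 neither spot was above background, so the size is uncertain. A second probe, which also passed the filter through A-, gave -1.18, 0.10, -0.79 and -1.33, a mean of -0.80 ± 0.64. The other 2 of its 4 probes did not pass the filter and averaged 0.21 and 0.17. EZH2 and EZH1 stood near 0, at 0.10 ± 1.23 and -0.10 ± 0.40, and EZH2 was at -0.04 under scale normalization between arrays. EZH2 stood above SUZ12 on all 4 arrays, by 2.25 ± 0.70 on average, in a comparison made after the values were seen.

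EED had the widest spread of the 51 genes. Its ratios were -1.73 and -5.38 with A150 in Cy5 and 3.03 and 3.28 with A150 in Cy3. The signs were opposite on the array pairs, so the mean of -0.20 ± 4.15 carries no direction (it was 0.56 with median centring). The subunits of PRC2 thus could not be placed together on either side.

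CBX proteins read methylated histones, CBX2, CBX7 and CBX8 in Polycomb complexes and CBX1, CBX3 and CBX5 as the HP1 proteins of heterochromatin. CBX5 (HP1 alpha) stood at -1.68, -4.68, 0.39 and -3.51, a mean of -2.37 ± 2.22 (limma adjusted p = 0.335, and 0.0920 to 0.608 over the alternatives). However, another CBX5 probe averaged 0.69 ± 0.73, so the gene has no single direction. CBX1 and CBX3 stood at -0.07 ± 1.05 and 0.02 ± 0.48, and the latter was at -0.09 with median centring. CBX2 was negative on all 4 arrays but small (-0.32 ± 0.29), CBX7 stood at -0.13 ± 0.53 and CBX8 at 0.48 ± 1.04. Over the 10 Polycomb and HP1 genes, 3 had positive means.

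Lysine demethylases comprise the flavin enzymes KDM1A and KDM1B and the Jumonji-domain enzymes. KDM1A, which acts on lysine 4 of histone H3, had 1.07 and 1.17 on arrays 1 and 2 but 0.01 and 0.05 on arrays 3 and 4, a mean of 0.58 ± 0.63. A second KDM1A probe did not follow these array pairs, at 2.43, -0.93, -2.05 and 1.75, a mean of 0.30 ± 2.13. KDM1B, known in mouse oocytes as a demethylase needed to set maternal imprints, stood at -0.69, -0.49, -3.41 and 0.48, and its mean of -1.03 ± 1.67 was -0.23 without array 3. The Jumonji enzymes KDM4C, KDM4B and KDM2B had means between -0.13 and 0.10, that of KDM4C being -0.30 without normalization within arrays. No demethylase passed an unadjusted p under 0.05.

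Arginine methyltransferases were represented by PRMT1, PRMT5 and PRMT6. PRMT1, the main asymmetric methyltransferase, stood at 0.49 ± 1.11 with both fractions above background on every array, and a second probe at 0.39 ± 0.60. PRMT5, the main symmetric one, had -1.83 and -1.34 on arrays 1 and 2 and 1.07 and 1.15 on arrays 3 and 4, opposite signs on the array pairs (mean -0.24 ± 1.57, and 0.09 with median centring). PRMT6 stood at 0.14 ± 1.37, and at -0.20 without normalization within arrays.

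ATP-dependent remodellers were mostly below the filter, and 6 genes could be tested. SMARCA5, the ISWI ATPase, stood at 1.66, 0.88, 1.05 and -0.64, a mean of 0.74 ± 0.98 (limma adjusted p = 0.547). The SWI/SNF ATPases SMARCA4 (BRG1) and SMARCA2 (BRM) had negative means by their brightest probes, -0.92 ± 1.42 and -0.54 ± 1.42. SMARCA4 had -2.56 and -1.51 on arrays 1 and 2 against 0.71 and -0.31 on arrays 3 and 4. For SMARCA2, 2 further probes were positive on all 4 arrays (0.66 ± 0.43 and 0.21 ± 0.18), and its ratio was 0.12 with median centring, so it has no single direction. SMARCE1 had 4 usable probes at -0.33, -0.35, 0.42 and 0.54. CHD3, a NuRD ATPase, and SMARCD2 were close to 0 (0.08 ± 0.25 and 0.01 ± 0.24), and CHD3 was at -0.12 with median centring.

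The classes were then set side by side. On the mean of the array medians, remodellers stood at 0.15 ± 0.33 (SD, n = 4 arrays), lysine methyltransferases at 0.12 ± 0.12, arginine methyltransferases at -0.05 ± 1.23, deacetylases at -0.07 ± 0.37, readers at -0.09 ± 0.76, lysine demethylases at -0.11 ± 0.22 and Polycomb and HP1 genes at -0.27 ± 0.51, where all genes tested stood at 0.05 ± 0.11. No class with over 1 tested gene was on the same side of 0 on all 4 arrays. Acetyltransferases were represented by KAT5 alone.

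Lysine methylation writers (the 7 above with EZH1 and EZH2) exceeded demethylases by -0.04, 0.07, 0.69 and 0.03 on the 4 arrays. For acetylation, KAT5 exceeded the median of 11 deacetylases by 1.94, 1.51, 0.78 and 2.91. That contrast is 1 gene against a class, and it did not hold once the genes annotated under older symbols were added. KAT8, annotated as MYST1, stood at -2.15, 5.14, 0.35 and 0.44, and KAT7, annotated as MYST2, at -2.72, -1.06, 0.49 and 1.94. The KAT7 values are those of its brightest probe, and its other usable probes averaged 0.38 and -0.48. With these 3 acetyltransferases the class exceeded deacetylases by 0.43 ± 1.72, positive on 3 arrays. Of the other genes reached through current symbols, KMT5B stood at 0.86 ± 1.18, KDM4A at 0.21 ± 0.81 and ING2, annotated as INGX, at -0.12 ± 0.65.

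Single readers had large ratios of both signs while their median lay near 0. The median of the absolute mean ratios was 1.11 for the 8 reader genes, 0.72 for lysine methyltransferases, 0.43 for remodellers, 0.31 for deacetylases, 0.24 for arginine methyltransferases, 0.16 for Polycomb and HP1 genes and 0.13 for demethylases, against 0.39 for all genes tested and 1.71 for KAT5 alone. Among the readers BRD9 and ING5 on the A150 side and BRPF3 and ING3 on the A- side had an unadjusted p under 0.05. This is a description of few genes, and no test of the class was made. An absolute mean also rises with the spread over arrays. The median SD over arrays was 1.10 for readers, 0.92 for lysine methyltransferases, 1.20 for remodellers and 0.79 for all genes tested.

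**Figure D3:**
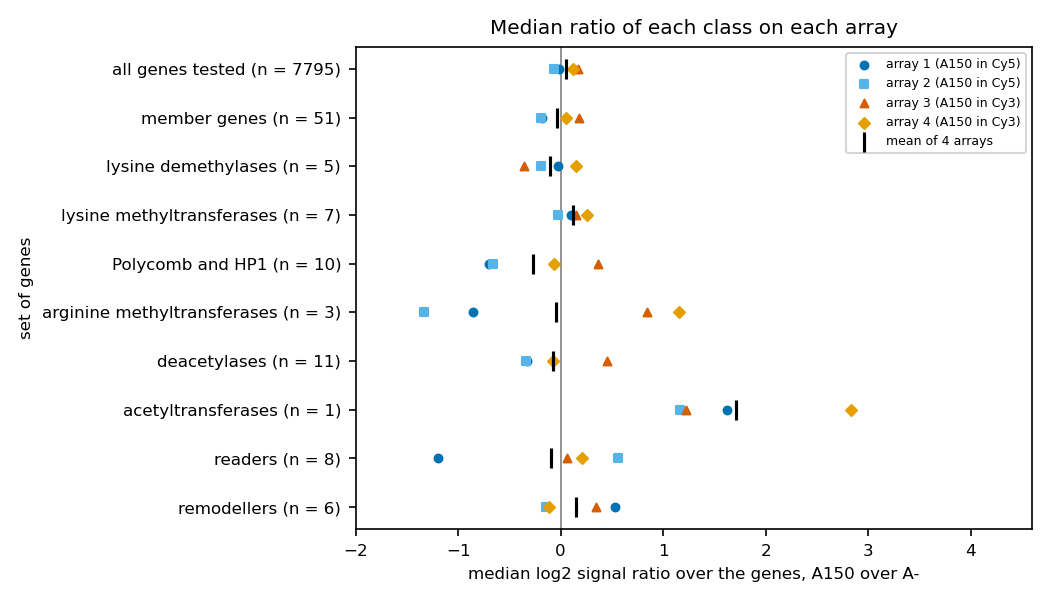
The horizontal axis is the median log2 ratio of A150 over A- across the genes of a set, and each row is a set with its number of tested genes. Symbols are the 4 arrays and black bars their mean. All multi-gene classes have arrays on both sides of 0, and KAT5, alone in its class, lies between 1.17 and 2.83.

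The arrays were next compared by dye orientation. For 27 of the 51 genes (52.9%) the mean of arrays 1 and 2 and the mean of arrays 3 and 4 had opposite signs, against 44.9% of all genes tested, a share near the background. Across the 51 genes the ratios of arrays 1 and 2 correlated at r = 0.42 and those of arrays 3 and 4 at r = 0.45, while arrays of opposite orientation gave -0.18 to 0.23. These are correlations across genes, which share each array's RNA, dyes and amplification and are not independent replicates. Over all genes tested the corresponding values were 0.30 and 0.27, and 0.08 to 0.27. Pools 1 and 2 also differ from pools 3 and 4, so dye and pool cannot be told apart in this split. The 8 genes with an unadjusted limma p under 0.05 were picked on these same arrays, which favours equal signs. That they kept their sign is therefore no independent support. SETDB1 (1.67 in both orientations), ING5 (0.75 and 0.74), BRPF3 (-2.32 and -2.10), KAT5 (1.39 and 2.03), SUZ12 (-2.69 and -1.61), CBX5 (-3.18 and -1.56), BRD9 (0.72 and 2.18) and ING3 (-0.73 and -2.67) kept their sign, whereas EED, SETD2, PRMT5 and EHMT2 did not.

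**Figure D4:**
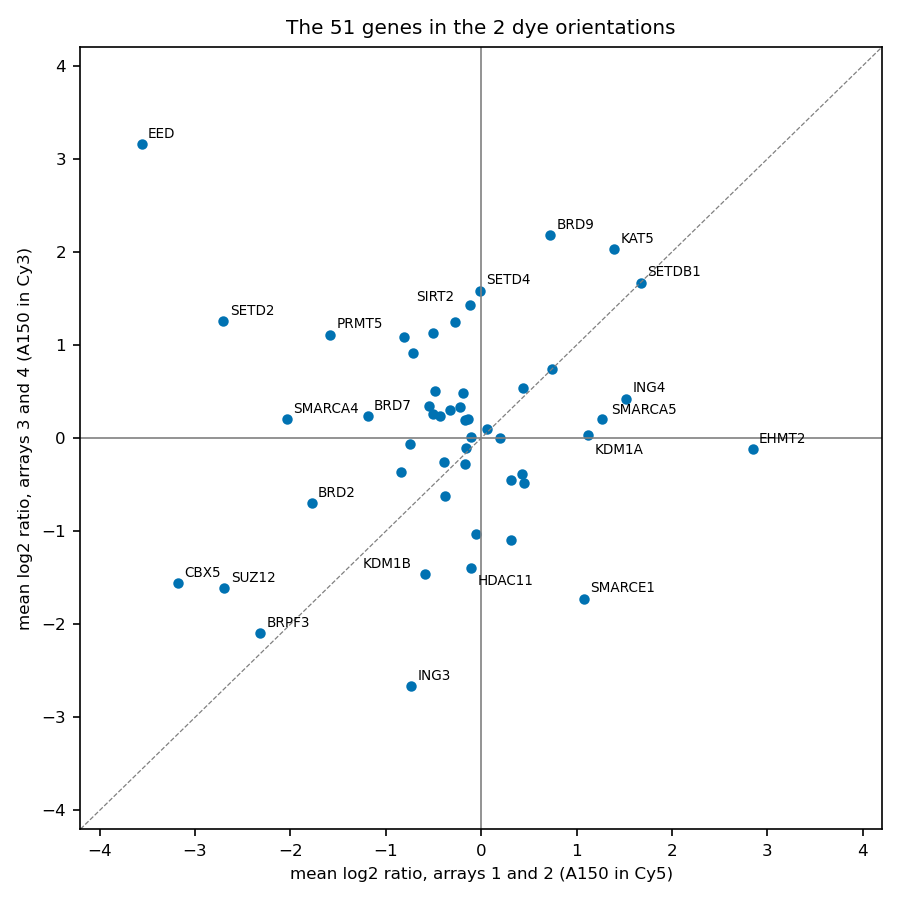
Each point is 1 of the 51 genes, with its mean log2 ratio on arrays 1 and 2 on the horizontal axis and on arrays 3 and 4 on the vertical axis. The dashed line marks equal values. BRPF3, SETDB1 and KAT5 lie in the quadrants of equal sign, while EED, at -3.56 and 3.15, is the farthest into a quadrant of opposite sign.

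Probes of 1 gene were then compared. Among the 14 genes with over 1 usable probe, all probes had the same sign of the mean for 9 and opposite signs for 5, namely CBX5, ING4, SETD6, SMARCA2 and SMARCE1. Of the 8 genes with an unadjusted p under 0.05, KAT5, BRPF3, ING3 and SUZ12 had a further usable probe on the same side, CBX5 had one on the other side, and SETDB1, BRD9 and ING5 had 1 usable probe only. In the lower fraction those same-side probes were above background on 0 and 1 arrays for KAT5, on 1 for ING3 and SUZ12 and on 2 for BRPF3. Each of these further probes thus passed the filter through its higher fraction, so the shared sign is no independent support.

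Partners of these enzymes, listed by complex, were compared next. Of 127 listed partner genes 69 were tested, with 35 positive and 34 negative means, and none passed limma's adjusted threshold. Before adjustment, 4 had p under 0.05 toward A150 and 6 toward A- (9.72% and 4.19% of all genes tested). The mean of their array medians was -0.01 ± 0.17.

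PRC2 partners were the 1 partner list below 0 on every array, with a median of -0.65, -0.28, -0.71 and -0.78 over 6 genes. MTF2, a PHD-finger subunit that brings PRC2 to CpG-rich DNA, stood at -2.11, -1.92, -0.61 and -3.45, a mean of -2.02 ± 1.17, with both fractions above background on every array. JARID2, a DNA-binding partner of PRC2, stood at -1.52 ± 1.11, but a second probe averaged 0.19 ± 0.72. AEBP2 stood at -2.04 ± 2.73, with -5.93 on array 4, and by a second probe at -0.71 ± 1.54. The histone-binding RBBP4 and RBBP7, which PRC2 shares with NuRD and SIN3, were slightly positive (0.32 ± 0.94 and 0.26 ± 1.44). With the 4 core genes, 7 of the 10 tested PRC2 genes had negative means. The median of these 10, a set put together after the values were seen, was -1.35, -0.57, -0.57 and 0.09 on the 4 arrays.

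Partners of acetyltransferases, the list with the most tested genes (13), had before adjustment 3 genes with p under 0.05 on the A150 side (background 9.72%) and 2 on the A- side (4.19%). MORF4L1 (MRG15), a chromodomain reader in the KAT5 complex, stood at 1.21, 2.08, 1.23 and 2.13, a mean of 1.66 ± 0.51 (limma adjusted p = 0.123). YEATS4, a further subunit of that complex, stood at 1.37 ± 0.60 with all 4 arrays positive. TADA2A, an adaptor of PCAF- and GCN5-type enzymes, stood at 2.28 ± 1.04 by its brightest probe and at -0.11 ± 2.48 by another. On the A- side, TADA1, a subunit of the SAGA coactivator, stood at -1.56 ± 1.27 with further probes at -1.06 and -1.72, and SUPT7L, also of SAGA, at -1.10 ± 0.76 with a further probe at -0.58. In the KAT5 complex, also assembled after the values were seen, 6 of 9 genes had positive means and ING3, MEAF6 (-1.40 ± 1.98) and EPC1 (-0.42 ± 0.47) negative ones.

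The list of ISWI, INO80 and SRCAP remodeller partners had a median above 0 on every array (0.02, 0.67, 0.50 and 0.03). Of its 10 tested genes, 6 had positive and 4 negative means. The medians of the other lists lay on both sides of 0. Among remodeller partners, BAZ2A, which pairs with SMARCA5 in a complex that silences ribosomal genes, was negative on all 4 arrays, nearest 0 at -1.23 on array 2, with a mean of -3.40 ± 1.73 and 2 arrays above background in A150. PBRM1, a bromodomain subunit of SWI/SNF, was at -0.74, -1.09, -0.56 and -1.02, a mean of -0.85 ± 0.25, and a second probe at -1.10 ± 2.36. ZNHIT1, of the SRCAP remodeller, stood at 1.15 ± 0.96. RUVBL2, with the highest mean of the list of ISWI, INO80 and SRCAP partners, stood at 1.72 ± 1.84, with 1 array above background in A-. For PRC1, NuRD, SIN3 and CoREST, COMPASS and the other methyltransferases, 0 genes reached an unadjusted p under 0.05 in limma.

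**Figure D5:**
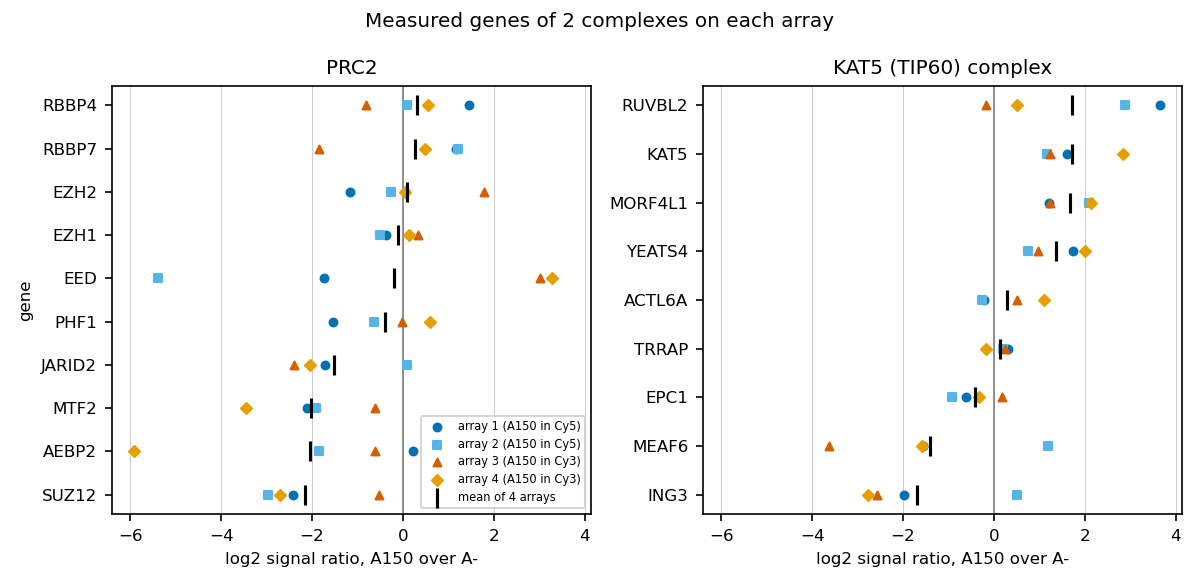
Rows are the tested genes of PRC2 and of the KAT5 (TIP60) complex, sorted by mean, and the horizontal axis is the log2 ratio of A150 over A-. Symbols are the 4 arrays and black bars their mean. In PRC2 the low end is SUZ12, AEBP2, MTF2 and JARID2, and in the KAT5 complex KAT5, MORF4L1 and YEATS4 are positive on all 4 arrays.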

How the data were processed

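The authors deposited, per the file headers, spot intensity values (mean and median) and local background intensity in the Cy3 and Cy5 scans of each of 4 arrays, without subtraction, and a table of log2 ratios whose making the labels do not record. Per the labels' protocols, RNA was depleted of ribosomal RNA, parted on poly(A)-binding beads, amplified and dye-labelled. Amplification can favour some messages. The deposited log2 ratios correlated at 0.996 to 0.999 with loess ratios of A150 over A-, so their columns share that direction, with medians from -0.011 to 0.020.

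Spot means were background corrected by normexp with an offset of 50 and normalized within arrays by loess, with control spots at weight 0, in limma 3.58.1 under R 4.3.3. Signs of arrays 3 and 4 were turned. Background used 153 negative-control spots. Of 43794 probes, 19453 were kept, and 7795 genes were tested against 0 by limma with Benjamini-Hochberg adjustment over all of them. A bound compares single-channel means, the dim one raised to the lowest signal above background. It takes no account of the spread over arrays, so it is not a firm minimum. Pairing by pool is within the ratio. P-values rest on the spread over arrays, pool and array being 1 unit, and the number of arrays limits precision. Symbols came from the platform annotation, updated by RefSeq synonyms. The fit was tested on simulated data.

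Named genes were every tested enzyme with an unadjusted p under 0.05, the 2 with the smallest p on each side of each class, and 10 of 16 preset enzymes that had a usable probe, and other enzymes and partners are named where their class or list is described. The enzymes, classes and lists were chosen with earlier results of these data known. No class or list was tested. No sequences are shown.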

Additional observations from a re-analysis of the deposited data

Results flagged for a closer look

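Of 40 sets of 4 array values examined for a single array far from the rest (the named genes and the class medians), 1 stood apart: HDAC2 had 0.495 on array 4 against -0.72, -0.78 and -0.61 on the others, and chance sets apart some sets of this size. Without array 4 its mean ratio was -0.70.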

How the results depend on the processing

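No chromatin enzyme passed an adjusted p under 0.05 in limma under any alternative fit, and of the 31 named genes 21 kept 1 sign throughout. The unadjusted p stayed under 0.05 in all alternatives run for KAT5 (16), BRPF3 and SUZ12 (15 each), in 14 of 15 for SETDB1 (not single channels), 12 of 15 for BRD9, 10 of 15 for ING3, 9 of 14 for ING5 and 6 of 15 for CBX5. It was lost without array 3 or 4 for BRD9, without array 1, 3 or 4 for ING3, without array 1, 2 or 3 for ING5 and without array 1, 2 or 4 for CBX5. These genes were picked by this p on the same arrays, which the alternatives fit again. The counts of alternatives are therefore no independent support. Over all genes tested, calls toward A150 and A- were 89 and 49 without normalization within arrays, 0 and 1 with signal in both fractions on all arrays (956 genes), and 0 and 1 with the authors' deposited log2 ratios. Over all probes tested, 0 calls toward A150 became 2 with spot medians, 300 without normalization within arrays and 116 with signal in both fractions on all arrays (2030 probes), and 12 toward A- became 30, 355 and 128. The latter were 0 without background correction, with median centring, with scale normalization, without a filter, with a dye term, with the authors' deposited log2 ratios and when any 1 array was left out (0 to 0). The ratio itself pairs A150 with A- by pool. Single channels without that replicate block gave 12 and 13 gene calls and 77 and 124 probe calls.

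Without normalization within arrays, where the median of all genes was -0.38, the medians were -0.42 for the enzymes, -0.47 for demethylases, -0.33 for lysine methyltransferases and -0.57 for deacetylases. With signal in both fractions on all arrays they were 0.48 for Polycomb and HP1 (1 gene), -0.60 for deacetylases (1 gene) and -0.86 for readers (2 genes). The acetyltransferase value was 0.87 without a filter (2 genes), 0.36 with current symbols (3 genes) and 0.31 with BRPF and ING (6 genes).

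Without normalization within arrays KDM4C was -0.30, CBX3 -0.43, EED 0.22, PRMT6 -0.20, HDAC10 -0.15 and CHD3 -0.46. With median centring CBX3 was -0.094, EED 0.56, PRMT5 0.087, CHD3 -0.12 and SMARCA2 0.12. EZH2 was -0.037 with scale normalization, CBX3 -0.023 without background correction and -0.0080 in the authors' deposited log2 ratios, PRMT6 -0.033 with spot medians and SMARCA2 0.11 as the mean of its probes. Leaving out 1 array gave -0.21 to 0.47 for KDM4C, -1.52 to 0.38 for SETD2, -0.46 to 0.52 for EZH2, -0.12 to 0.18 for CBX3, -1.36 to 1.52 for EED, -0.26 to 0.79 for PRMT6, -0.70 to 0.30 for PRMT5, -0.084 to 0.60 for HDAC10 and -0.010 to 0.16 for CHD3. The cause was not tested. Few spots lay above background in A150 on array 2, which limits ratios there.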
